A study of Mus musculus with 6 samples.

Results

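Interferon-inducible immunity GTPases are the proteins with which a mouse cell attacks microbes that have entered it. The 10 genes described here belong to its 2 main families: 7 immunity-related GTPase (IRG) genes, Iigp1, Igtp, Irgm1, Irgm2, Ifi47, Tgtp1 and Gm4951, and 3 guanylate-binding protein (GBP) genes, Gbp2, Gbp6 and Gbp7. They were picked by their symbol in the deposited gene tables, and all 10 were found among 16426 genes listed in at least 1 library. They were picked with earlier results of the same comparison known, so their differences between the groups are given as a description, without a test.

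Livers from 2 groups of mice were compared, 3 from mice given an adeno-associated virus (AAV8) with a short hairpin RNA (shRNA) against S1pr2 and 3 from mice given AAV8 with a scramble shRNA. S1pr2 encodes a cell surface receptor that senses sphingosine-1-phosphate. All mice were on a mixed B6:sv129 background and aged 7 to 12 weeks. Per the series text they were males, the virus went into the tail vein, and all drank water with the synthetic glucocorticoid dexamethasone for 7 days, at roughly 0.84 mg/kg. Livers of mice without dexamethasone or without virus were not analysed here, so every difference below is between shRNAs on a background of glucocorticoid. AAV8 mainly reaches hepatocytes in the mouse. What promoter drives the hairpins, and their sequence, is not given in the sources used here, and a single hairpin against S1pr2 is named. No label says that the replicates are separate animals, so p-values rest on a spread between samples that may be technical.

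The libraries held 16558775 to 17410160 expected counts, the fragments that the program RSEM assigned to genes, and listed 14522 to 15106 genes each. Levels are given as CPM, counts scaled to a library of 1e6 with TMM factors (trimmed mean of M-values), unless FPKM is named. FPKM is scaled per kilobase of transcript and to library size, without TMM factors. Of the 16426 genes, 12230 passed the count filter, and the 10 GTPase genes were all among them. S1pr2 (Entrez gene 14739) was at 3.04, 2.20 and 2.22 CPM in S1pr2 shRNA livers 1 to 3, against 4.41, 5.23 and 6.66 CPM in scramble livers 1 to 3. The log2 fold change was -1.12 with an SE of 0.24 (adjusted p = 0.0301, from edgeR's quasi-likelihood F test with Benjamini-Hochberg adjustment), and an exact two-sided permutation test over the 20 assignments of the livers gave p = 0.1, the smallest that 3 against 3 livers allow. The call was lost without liver 2 or 3 of either group (edgeR adjusted p = 0.0785 to 0.117). S1pr2 shRNA liver 1 stood somewhat apart, with the highest TMM factor (1.154, against 0.924 to 1.027 in the other 5 livers). Its summed macrophage and Kupffer cell markers were at 502 CPM, against 160 to 396 CPM in the other livers. Summed markers of hepatocytes were at 100041, 137644 and 134408 CPM in S1pr2 shRNA livers 1 to 3, against 147972, 157679 and 176456 CPM in scramble livers 1 to 3. Every S1pr2 shRNA sum was below every scramble sum, with liver 1 lowest. Alb made up most of each sum, at 56835, 84021 and 85603 CPM in S1pr2 shRNA livers against 103256, 108503 and 129028 CPM in scramble livers. Of the 10 markers, 3 were lower without overlap and 1, Apoa1, was higher without overlap, so the sum does not describe them all.

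Interferon gamma acts through GAS elements in promoters (gamma-activated sites) and through the IRF1 that it induces. Type I interferons act through a complex with IRF9 that binds the ISRE (interferon-stimulated response element). Transcripts of both GTPase families are induced by these routes. The IRG proteins fall into regulators, which sit on the cell's own membranes and hold the others inactive (Irgm1, Irgm2 and Igtp), and effectors, which load onto the vacuole around a parasite such as Toxoplasma and break it open (Iigp1, Ifi47 and Tgtp1 among them). GBP proteins are larger relatives of dynamin that coat the same vacuoles and free bacteria. The mouse liver is known to transcribe Iigp1 without infection, from a promoter active in that organ.

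RefSeq promoters of build GRCm38.p6, from 250 bases before to 50 bases after each start, were searched for a GAS (TTCNNNGAA) and for an ISRE core (GAAA, any 2 bases and GAAA again, on either strand). Promoters matched for 7 of the 10 genes (Igtp, Irgm1, Irgm2, Ifi47, Tgtp1, Gbp2 and Gbp7), and Iigp1, Gm4951 and Gbp6 had no entry. Of the 7, 4 held a GAS (Igtp, Irgm2, Tgtp1 and Gbp7) and 6 held an ISRE core, all but Ifi47. Of 32851 promoters in the table, 8.30% held a GAS, 3.44% an ISRE core and 0.454% both.

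In Igtp, Irgm2 and Tgtp1 the motifs lay in the same layout, a GAS whose end is followed after a gap of 2 bases by the ISRE core. That joined pattern (the GAS, any 2 bases, then the ISRE core) was searched for after the layout had been seen. It stood in 5 of the 32851 promoters (0.0152%), all of IRG-family genes on chromosome 11: the 3 named and their relatives Gm12185 and Tgtp2. The first base of the pattern was 45 bases before the start in Igtp (chr11:58199511-58199531, plus strand), 75 in Irgm2 (chr11:58214902-58214922, plus strand) and 88 in Tgtp1 (chr11:48992314-48992334, minus strand). It was 86 bases before the start in Gm12185 (chr11:48927248-48927268, minus strand) and 81 in Tgtp2 (chr11:49064273-49064293, minus strand). The 5 elements are shown with 8 bases on each side, 5′ to 3′ on the strand of the gene, with the joined pattern in capitals.
Igtp: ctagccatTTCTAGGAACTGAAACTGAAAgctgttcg
Irgm2: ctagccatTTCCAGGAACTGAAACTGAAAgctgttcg
Tgtp1: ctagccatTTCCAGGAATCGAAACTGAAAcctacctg
Tgtp2: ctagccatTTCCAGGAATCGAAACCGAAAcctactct
Gm12185: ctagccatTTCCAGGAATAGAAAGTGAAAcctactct

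The 8 bases in front of the pattern were the same in all 5 genes. Igtp and Irgm2 shared an identical run of 61 bases over their promoters, and Irgm2 and Tgtp1 one of 20. The whole Irgm2 and Tgtp1 promoters (chr11:58214727-58215026, plus strand, and chr11:48992197-48992496, minus strand) are shown as 2 carriers of the joined pattern. Whether the motifs act on the transcript levels given below was not tested. The Gbp7 promoter (chr3:142530086-142530385, plus strand) is shown for a different layout, with 2 GAS matches and the ISRE core on the other strand. Capitals mark the GAS and the ISRE core.
Irgm2 promoter: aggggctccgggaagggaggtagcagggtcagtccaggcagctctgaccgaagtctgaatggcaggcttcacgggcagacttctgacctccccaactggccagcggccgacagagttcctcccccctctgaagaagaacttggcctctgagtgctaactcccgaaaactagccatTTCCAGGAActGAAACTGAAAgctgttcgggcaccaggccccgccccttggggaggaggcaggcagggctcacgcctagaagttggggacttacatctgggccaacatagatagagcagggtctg
Tgtp1 promoter: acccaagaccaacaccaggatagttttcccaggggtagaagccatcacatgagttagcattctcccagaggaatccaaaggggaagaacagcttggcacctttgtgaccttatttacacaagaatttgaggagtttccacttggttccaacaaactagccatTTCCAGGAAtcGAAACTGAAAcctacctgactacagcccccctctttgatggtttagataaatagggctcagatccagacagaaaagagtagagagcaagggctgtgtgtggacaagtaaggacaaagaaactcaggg
Gbp7 promoter: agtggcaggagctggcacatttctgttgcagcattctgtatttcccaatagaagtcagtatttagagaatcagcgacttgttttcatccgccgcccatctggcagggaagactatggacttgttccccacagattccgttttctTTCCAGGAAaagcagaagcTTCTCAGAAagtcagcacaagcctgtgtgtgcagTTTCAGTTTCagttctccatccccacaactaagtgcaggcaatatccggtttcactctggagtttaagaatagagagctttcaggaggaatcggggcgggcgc

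Irgm1 and Gbp2 had ISRE cores without a GAS match. Irgm1 (minus strand) had a pair that overlap by 4 bases, starting 30 and 24 bases before the start, and Gbp2 (plus strand) had 1, starting 59 bases before it. Each is shown with 8 bases on each side and the core in capitals.
Irgm1, farther core: tgtttcaaGAAATAGAAAccgaaact
Irgm1, nearer core: aagaaataGAAACCGAAActgattct
Gbp2: tcttttagTTTCACTTTCactgtctt

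**Figure D1:**
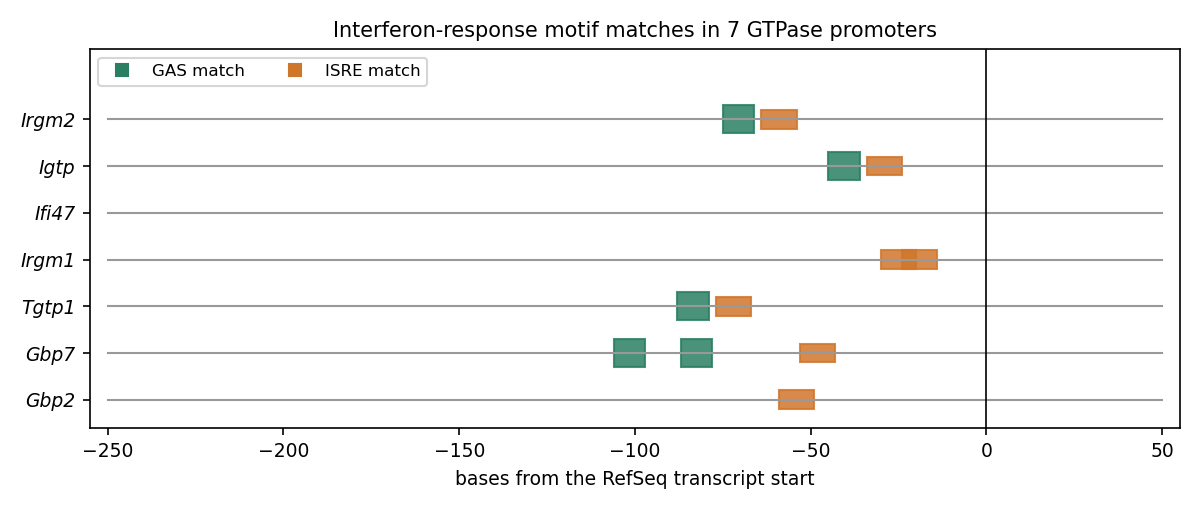
Positions of GAS matches (green) and ISRE core matches (orange) in the 7 GTPase promoters found, in bases from the RefSeq transcription start (0). Igtp, Irgm2 and Tgtp1 show a GAS directly followed by an ISRE core, Gbp7 has 2 GAS matches and 1 ISRE core farther apart, and Ifi47 has no match.

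A match is a description of the letters in that window, not a bound site. Among the other groups of genes used below, 8 of 11 further immunity GTPase genes with a promoter held an ISRE core and 4 of 11 a GAS. Of 23 genes stimulated by type I interferon, 12 held an ISRE core and 6 a GAS. Of 16 genes of autophagy, the inflammasome and related partners, 0 held an ISRE core and 3 a GAS. Of 20 interferon-gamma-responsive genes 3 held an ISRE core and 2 a GAS, and of 30 interferon signalling genes 6 held an ISRE core and 8 a GAS. Counted by gene rather than by promoter, 3.99% of 27025 genes held an ISRE core and 9.55% a GAS.

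Across the 10 genes, the S1pr2 shRNA livers had the higher mean in every case, by a log2 fold change of 0.04 to 1.51 (median 0.68, against 0.01 over all 12230 genes tested). Irgm2, Gbp6 and Iigp1 differed by more than 2-fold, and Tgtp1 and Gbp2 were nearly level. In 6 of the 10 (Iigp1, Irgm2, Ifi47, Gm4951, Gbp6 and Gbp7) every S1pr2 shRNA liver was above every scramble liver, as in 15.1% of all genes tested (31.9% did not overlap in either direction). In the edgeR fit 5 of the 10 (Iigp1, Irgm2, Ifi47, Gm4951 and Gbp6) passed an adjusted p of 0.05 as higher and 0 as lower, beside 3.02% of all genes higher and 7.66% in either direction. Because the genes were chosen on this contrast, nothing is read from these counts. The number that passed was 4 without S1pr2 shRNA liver 3, 3 without S1pr2 shRNA liver 1, 2 without S1pr2 shRNA liver 2 or scramble liver 1, and 1 without scramble liver 2 or 3. Calls over all genes fell in the same fits, from 7.66% to 5.21, 1.85 and 3.32% without S1pr2 shRNA liver 1, 2 and 3. They were 4.27, 3.65 and 3.23% without scramble liver 1, 2 and 3. Between 8 and 10 of the 10 stayed above 0 in these fits. In whole liver, less RNA per cell and fewer cells of a type cannot be told apart.

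**Figure D2:**
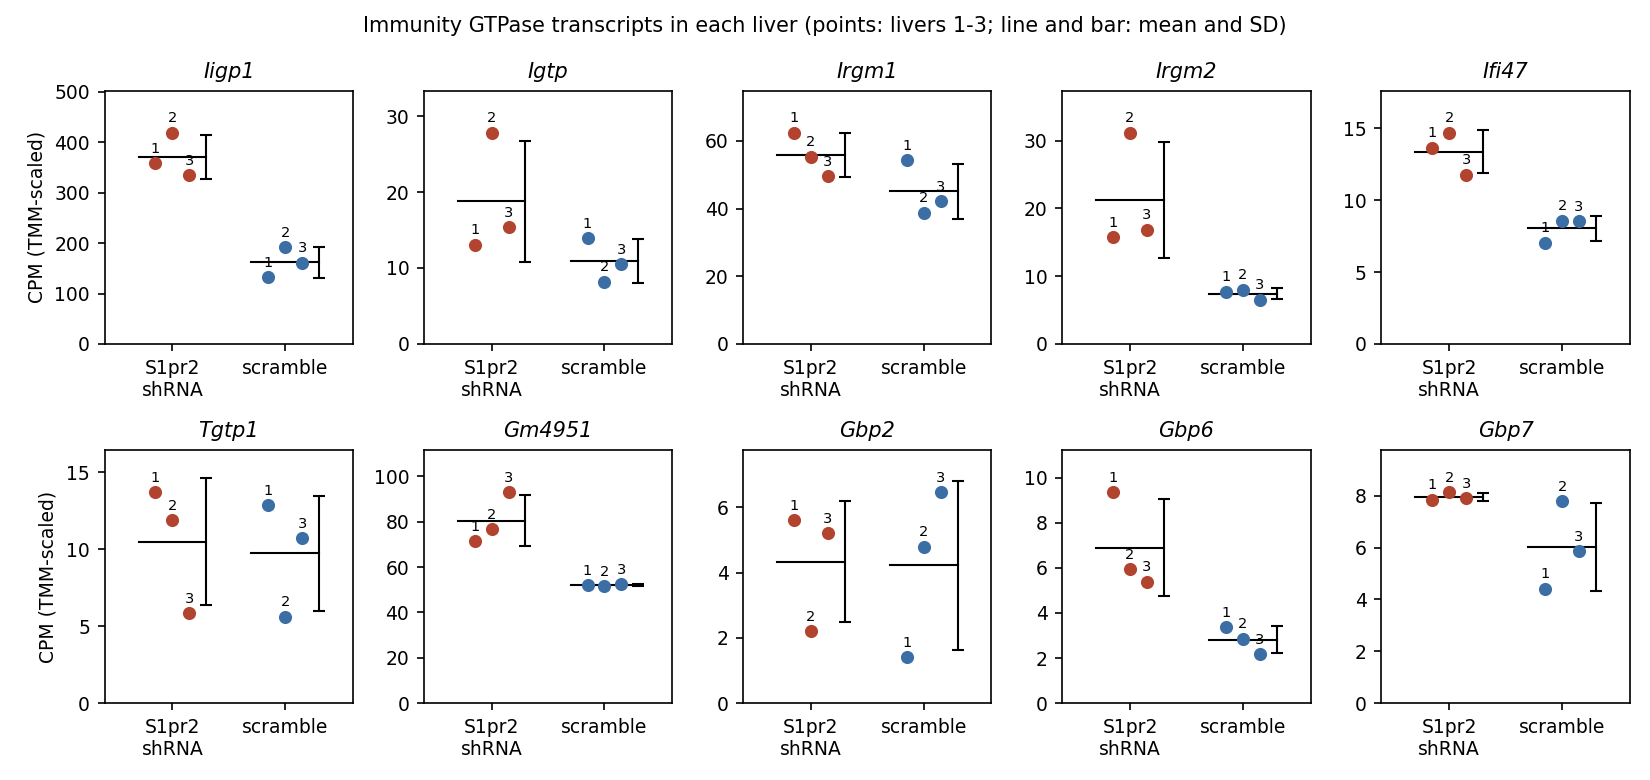
CPM of each of the 10 GTPase genes in S1pr2 shRNA livers 1 to 3 (red, left) and scramble livers 1 to 3 (blue, right); each panel has its own axis from 0, lines are means and bars SD (n = 3 each). The groups are apart in Iigp1, Irgm2, Ifi47, Gm4951, Gbp6 and, narrowly, Gbp7, and overlap in Igtp, Irgm1, Tgtp1 and Gbp2.

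Among the regulators, Irgm2 (Entrez gene 54396) differed most. It was at 15.8, 31.2 and 16.9 CPM in S1pr2 shRNA livers 1 to 3, against 7.72, 8.03 and 6.54 CPM in scramble livers 1 to 3. Every S1pr2 shRNA liver was well above every scramble liver, and S1pr2 shRNA liver 2 stood far above livers 1 and 3 of its group. The log2 fold change was 1.51 (SE 0.28), or 2.86-fold, and 1.13 without S1pr2 shRNA liver 2.

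Igtp (16145), also called Irgm3, which is found on the endoplasmic reticulum and on lipid droplets, had the same peak in S1pr2 shRNA liver 2. It was at 13.1, 27.8 and 15.4 CPM in S1pr2 shRNA livers, against 13.9, 8.21 and 10.5 CPM in scramble livers. S1pr2 shRNA liver 1 lay below scramble liver 1, so the groups overlapped, and the log2 fold change was 0.78 (SE 0.33), or 0.38 without S1pr2 shRNA liver 2. Irgm1 (15944), the regulator best known from control of mycobacteria and of autophagy in mice, was at 62.4, 55.4 and 49.6 CPM in S1pr2 shRNA livers and 54.3, 38.8 and 42.2 CPM in scramble livers. Scramble liver 1 lay inside the S1pr2 shRNA range, and the log2 fold change was 0.31 (SE 0.15), or 0.20 without scramble liver 2.

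Iigp1 (60440), the effector known as Irga6, was by far the most abundant of the 10. It was at 359, 419 and 334 CPM in S1pr2 shRNA livers, against 132, 192 and 161 CPM in scramble livers. The groups were wide apart, with a log2 fold change of 1.20 (SE 0.17), or 2.29-fold. Gm4951 (240327), an IRG-family gene still under a predicted name, was at 71.5, 76.6 and 93.1 CPM in S1pr2 shRNA livers, against 52.0, 51.6 and 52.5 CPM in scramble livers. The scramble livers were nearly identical, with a coefficient of variation of 0.86%, against 14.0% among S1pr2 shRNA livers, and the log2 fold change was 0.63 (SE 0.12). It was the only one of the 10 whose highest level was in S1pr2 shRNA liver 3.

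Ifi47 (15953), the effector Irgd, was at 13.7, 14.7 and 11.8 CPM in S1pr2 shRNA livers, against 7.05, 8.59 and 8.53 CPM in scramble livers. Its groups did not overlap, and its log2 fold change was 0.73 (SE 0.14). The 1 promoter searched for Ifi47 held neither motif, and the effect of motifs on levels was not tested. Tgtp1 (21822), the effector Irgb6, did not separate the groups. It was at 13.7, 11.9 and 5.85 CPM in S1pr2 shRNA livers and 12.9, 5.60 and 10.7 CPM in scramble livers. Each group had 1 low liver, the ranges lay on top of each other, and the log2 fold change was 0.11 (SE 0.40). Its sign turned to -0.18 without scramble liver 2 and to -0.14 without S1pr2 shRNA liver 1.

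Of the GBP genes, Gbp6 (100702) differed most. It was at 9.36, 5.94 and 5.39 CPM in S1pr2 shRNA livers, against 3.37, 2.86 and 2.18 CPM in scramble livers, with no overlap and a log2 fold change of 1.30 (SE 0.27), or 2.46-fold. These levels rested on few reads, 91.89 to 184.55 expected counts in S1pr2 shRNA livers and 35.78 to 54.70 in scramble livers. On log2(FPKM + 1) its difference shrank to 0.72, since a pseudocount of 1 is of the order of its FPKM.

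Gbp7 (229900), known in mouse macrophages for helping to assemble the NADPH oxidase on bacterial vacuoles, was at 7.84, 8.14 and 7.90 CPM in S1pr2 shRNA livers, against 4.41, 7.78 and 5.87 CPM in scramble livers. The S1pr2 shRNA livers were tightly grouped (coefficient of variation 2.01%, against 28.1% among scramble livers), and the lowest of them was just above the highest scramble liver. Its log2 fold change was 0.40 (SE 0.21), or 0.22 without scramble liver 1 and 0.62 without scramble liver 2. Gbp2 (14469), a lipid-anchored GBP that restricts Toxoplasma in mice, was at 5.62, 2.20 and 5.21 CPM in S1pr2 shRNA livers and 1.41, 4.79 and 6.48 CPM in scramble livers. It varied most within the groups (42.9% and 61.1%), the ranges overlapped fully, and its log2 fold change was 0.04 (SE 0.58). Its sign turned to -0.37 without scramble liver 1, to -0.19 without S1pr2 shRNA liver 1 and to -0.11 without S1pr2 shRNA liver 3.

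The liver with the highest level was not the same for all genes. Among the S1pr2 shRNA livers, liver 2 was highest for Iigp1, Igtp, Irgm2, Ifi47 and Gbp7, and liver 1 for Irgm1, Tgtp1, Gbp2 and Gbp6. Across the 6 livers, the correlation of a gene's log2 CPM with the mean of all 10 (each centred and scaled, the gene itself included) was highest for Ifi47 (Pearson r = 0.98), Iigp1 (0.96), Irgm2 (0.93) and Gbp6 (0.91). It was lowest for Tgtp1 (0.24) and Gbp2 (0.09). These values describe 6 livers that share the split into 2 groups.

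Per length of transcript, the order of the levels was led by Iigp1 in both groups. Iigp1 had 127 ± 13.1 FPKM in S1pr2 shRNA livers and 49.9 ± 8.11 FPKM in scramble livers (SD, n = 3 each). Gm4951 followed with 31.7 ± 3.80 FPKM in S1pr2 shRNA and 18.5 ± 0.569 FPKM in scramble livers, and Irgm1 with 26.4 ± 5.02 and 19.2 ± 3.89 FPKM in the same order of groups. Gm4951 and Irgm1 overlapped each other in both groups, and both were apart from Iigp1 above and Igtp below.

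Igtp had 9.37 ± 3.35 FPKM in S1pr2 shRNA livers and 5.02 ± 1.43 FPKM in scramble livers, and Ifi47 had 8.05 ± 1.10 FPKM in S1pr2 shRNA and 4.34 ± 0.402 FPKM in scramble livers. Irgm2 had 6.18 ± 2.10 FPKM in S1pr2 shRNA livers and 1.97 ± 0.194 FPKM in scramble livers, and so stood sixth in the first group and below Tgtp1 in the second. Tgtp1 had 3.94 ± 1.75 FPKM in S1pr2 shRNA and 3.28 ± 1.32 FPKM in scramble livers. The 3 GBP genes were last, with mean levels of 1.48 to 1.87 FPKM in S1pr2 shRNA livers and 0.603 to 1.61 FPKM in scramble livers. In S1pr2 shRNA livers each gene from Igtp downward overlapped its neighbour in the order. In scramble livers the same held except that Gbp6, at 0.603 ± 0.135 FPKM, lay below Gbp7 without overlap.

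Summed over the 10 genes, the livers held 231.3, 225.0 and 196.7 FPKM with S1pr2 shRNA, against 103.0, 107.5 and 105.8 FPKM with scramble. The 7 IRG genes made up nearly all of it, 212.6 ± 18.1 FPKM in S1pr2 shRNA livers and 102.2 ± 1.48 FPKM in scramble livers (SD, n = 3 each). The 3 GBP genes summed to 5.03 ± 1.52 FPKM in S1pr2 shRNA and 3.21 ± 1.02 FPKM in scramble livers. Iigp1 alone was 58.3% of the sum in S1pr2 shRNA livers and 47.3% in scramble livers. These FPKM sums carry no TMM factor. As CPM with TMM factors, not scaled by length, the 10 genes summed to 572, 653 and 545 in S1pr2 shRNA livers 1 to 3. In scramble livers 1 to 3 that sum was 289, 328 and 307 CPM.

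Immunity GTPase genes arose by repeated duplication, so reads can be shared between copies. Expected counts were fractional in all 6 libraries for 8 of the 10 genes, and in 2 libraries for Ifi47 and Gbp2. In the longest coding transcripts of GENCODE M21, 91.4% of the 50-base windows of Tgtp1 also occurred in another gene, mainly Tgtp2 (89.4%), and 90.2% of those of Gbp6, in Gm43302 (90.2%) and Gbp10 (62.3%). The Gbp6 transcript searched had 2604 bases, against a deposited length of 4329, so its share describes a shorter model than the one counted. Whether Gm43302 was counted as a separate gene was not examined. The share was 12.8% for Gbp7, 12.3% for Igtp (all with Irgm2), 7.30% for Irgm2, 4.62% for Gm4951, 3.71% for Ifi47, 3.19% for Iigp1, 2.07% for Gbp2 and 0.814% for Irgm1. The levels of Tgtp1 and Gbp6 are therefore uncertain as levels of single genes.

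Gbp6 and Gbp10 together held 244.59, 120.46 and 111.59 expected counts in S1pr2 shRNA livers, against 58.28, 45.91 and 38.75 in scramble livers. Summing the pair before the fit gave a log2 fold change of 1.58, against the 1.30 of Gbp6 alone. RSEM gave Gbp6 75.5 to 82.3% of the pair's counts in S1pr2 shRNA livers and 92.3 to 100% in scramble livers. Tgtp1 held 82.6 to 95.5% of its counts summed with those of Tgtp2, and the sum had a log2 fold change of 0.15. Gm4951 held 97.9 to 98.9% of its counts summed with those of the related gene Gm4841, which was not among the genes that share its windows most often, and the sum had 0.62.

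**Figure D3:**
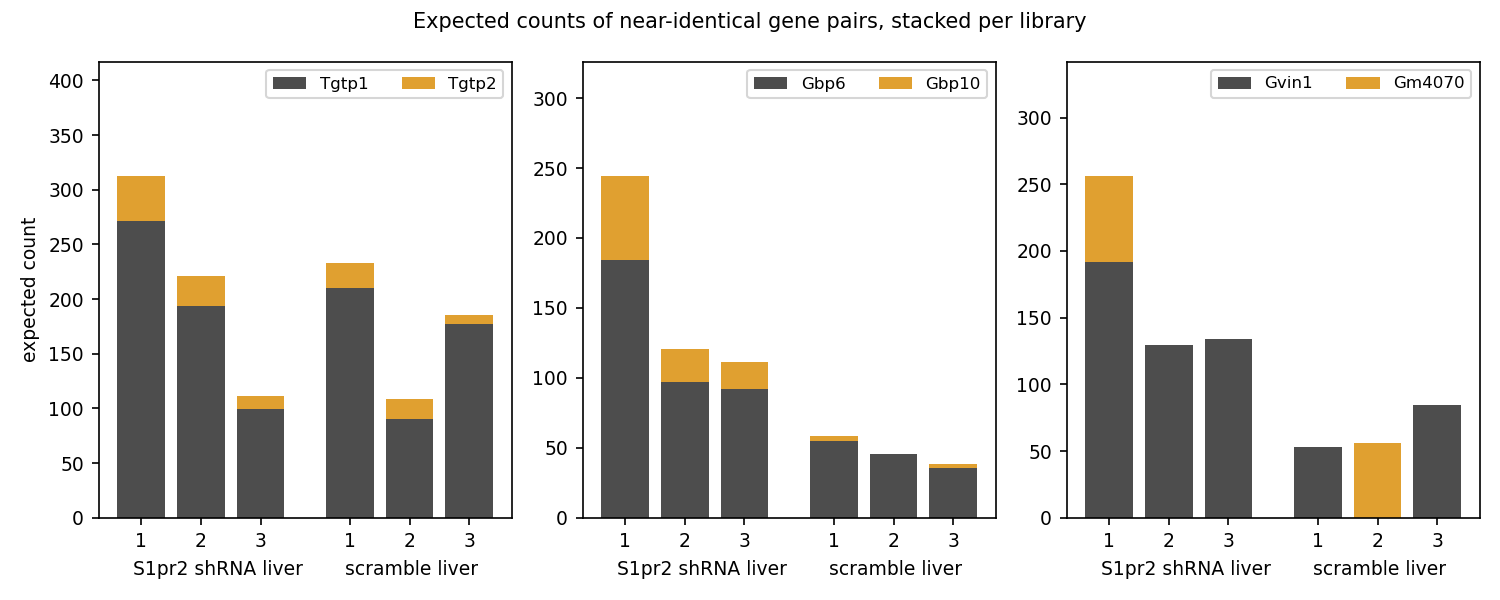
Expected counts of 3 pairs of near-identical genes, stacked, in S1pr2 shRNA livers 1 to 3 (left in each panel) and scramble livers 1 to 3 (right). The Tgtp1 and Tgtp2 sums overlap between the groups, the Gbp6 and Gbp10 sums do not, and in the last panel the reads of scramble liver 2 were all given to Gm4070 and those of most other livers to Gvin1.

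The other immunity GTPase genes were read from a list of 27, of which 23 were in the tables and 17 were tested. In the edgeR fit 1 of the 17 rose, 0 fell and 16 did not pass, beside 3.02% of all genes rising. Their log2 fold changes were above 0 in 16 of 17, as in 6283 of all 12230 genes, with a median of 0.78, and 6 were higher without overlap, as in 15.1% of all genes. The one that rose was Gbp10 (626578), at 3.04, 1.41 and 1.17 CPM in S1pr2 shRNA livers, against 0.245, 0 and 0.182 CPM in scramble livers (log2 fold change 3.65, SE 0.73, edgeR adjusted p = 0.0257). In scramble livers this was 0 to 3.58 expected counts, so the size of the fold change depends on the prior count of the fit. Its counts were fractional in all 5 libraries that listed it, and 62.3% of the Gbp6 windows also occurred in Gbp10. The level of Gbp10 as a single gene is therefore uncertain too, and the pair summed is given above. The call was lost whichever liver was left out (edgeR adjusted p = 0.0531 to 0.0817).

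Of those that did not pass, Gm12250 (Irgb10, an effector that frees bacterial ligands inside the cell) differed by 1.58 on the log2 scale (SE 0.52, edgeR adjusted p = 0.108). Mx2, a dynamin-like antiviral GTPase, had 1.07 (SE 0.32, edgeR adjusted p = 0.0846) and Gbp4 0.78 (SE 0.27, edgeR adjusted p = 0.117). Gbp5, which promotes the NLRP3 inflammasome, had 0.00 (SE 0.33, edgeR adjusted p = 0.997), with 1.01, 1.47 and 1.58 CPM in S1pr2 shRNA livers and 1.16, 1.74 and 1.15 CPM in scramble livers. It was named after its value was seen, as was Gvin1, a gene of the giant interferon-inducible GTPases. Gvin1 alone differed by 1.60 on the log2 scale (SE 0.95, edgeR adjusted p = 0.369). In scramble liver 2 it was not listed, and so taken as 0, while its near copy Gm4070 held 55.83 expected counts. In scramble livers 1 and 3 the reverse held. Summed, the pair was at 13.0, 7.96 and 7.85 CPM in S1pr2 shRNA livers, against 3.25, 3.48 and 5.14 CPM in scramble livers (log2 fold change 1.28, SE 0.27, edgeR adjusted p = 0.0293). This sum was chosen after the data were seen.

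**Figure D4:**
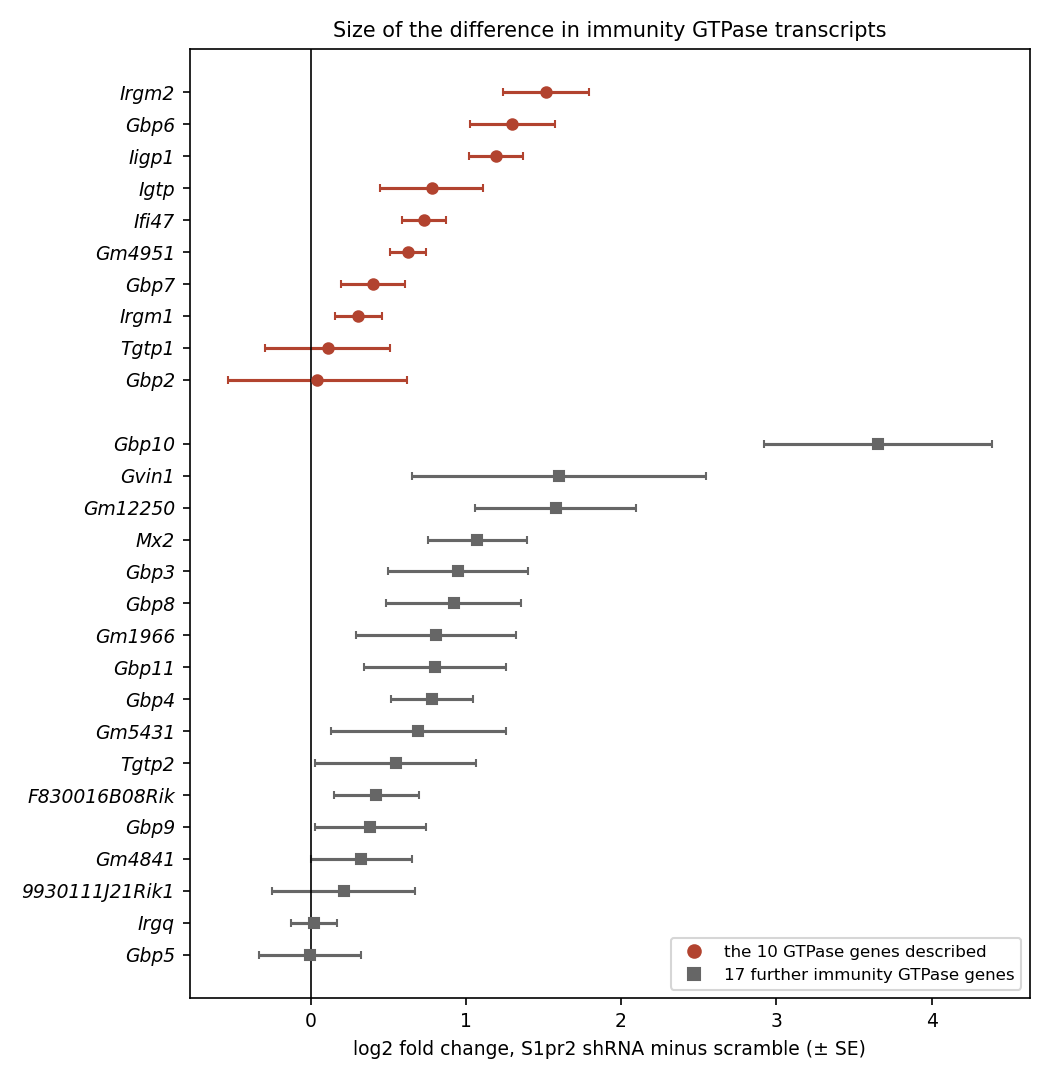
Log2 fold change (S1pr2 shRNA minus scramble, bars ± SE of the edgeR fit) of the 10 GTPase genes (red, a description) and 17 further immunity GTPase genes (grey), each sorted by size. Irgm2 at 1.51 and Gbp2 at 0.04 are the ends of the 10, and among the grey genes Gbp10 at 3.65 stands apart.

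The genes that carry the interferon signal were mixed. Of 33 listed ligand, receptor and signalling genes, 25 were in the tables and 22 were tested, and 3 rose, 0 fell and 19 did not pass, beside 3.02% of all genes rising and 4.64% falling. The log2 fold change was above 0 in 15 of the 22, with a median of 0.21. Irf9, the DNA-binding subunit of the type I interferon complex, rose. It was at 18.5, 19.3 and 15.7 CPM in S1pr2 shRNA livers, against 7.23, 8.90 and 7.81 CPM in scramble livers, which is 1.16 on the log2 scale (SE 0.13, edgeR adjusted p = 0.00531). Its call held in all 16 settings tried, each liver left out in turn among them.

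Irf1, which interferon gamma induces and which binds ISRE-like sites, also rose, at 21.4, 20.3 and 23.0 CPM in S1pr2 shRNA livers, against 10.5, 11.8 and 14.2 CPM in scramble livers (log2 fold change 0.82, SE 0.13, edgeR adjusted p = 0.0127). It lost the call without scramble liver 2 (edgeR adjusted p = 0.0520) or S1pr2 shRNA liver 3 (0.0535). Usp18, which strips ISG15 from proteins and damps the type I receptor, rose as well, at 10.1, 5.14 and 3.45 CPM in S1pr2 shRNA livers, against 1.23, 1.99 and 1.33 CPM in scramble livers (log2 fold change 2.04, SE 0.43, edgeR adjusted p = 0.0320). It lost the call without any one of the scramble livers or without S1pr2 shRNA liver 2 (edgeR adjusted p = 0.0680 to 0.115).

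Irf7, the amplifier of type I interferon production, differed by 1.57 on the log2 scale (SE 0.44, edgeR adjusted p = 0.0902) and Irf8, a macrophage factor, 0.67 (SE 0.36, edgeR adjusted p = 0.306). Irf2, known as an antagonist of IRF1 on shared sites, had the lowest value of the list and was named after that was seen. It was at 33.0, 63.3 and 50.6 CPM in S1pr2 shRNA livers, against 62.2, 132 and 101 CPM in scramble livers (log2 fold change -1.01, SE 0.34, edgeR adjusted p = 0.135). The ranges overlapped narrowly, and Irf2 passed as lower by the DESeq2 Wald test (adjusted p = 0.0130) and with the replicate block (edgeR adjusted p = 0.0105). The receptor genes did not pass: Ifngr1 had 0.23 (edgeR adjusted p = 0.560), Ifngr2 0.17 (0.409), Ifnar1 -0.25 (0.204) and Ifnar2 -0.10 (0.633). Of the ligands, Ifng and the listed Ifna and Ifnl genes had no line in the tables used here, and Ifnb1 had 1 count over all 6 livers.

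Interferon-gamma-responsive genes outside the GTPase families, mostly of antigen presentation, numbered 30 in the list, of which 26 were tested. Of these 3 rose, 0 fell and 23 did not pass, beside 3.02% of all genes rising and 4.64% falling. The log2 fold change was above 0 in 24 of the 26, as in 6283 of all 12230 genes, with a median of 0.47. Tapbp, the tapasin that loads peptides onto MHC class I, rose by 0.55 (SE 0.10, edgeR adjusted p = 0.0214). The immunoproteasome subunit Psmb9 rose by 0.61 (SE 0.15, edgeR adjusted p = 0.0452) and the MHC class II chain H2-Eb1 by 1.36 (SE 0.33, edgeR adjusted p = 0.0452). Psmb9 lost its call whichever liver was left out (edgeR adjusted p = 0.0654 to 0.135), H2-Eb1 in every case but scramble liver 2, and Tapbp without scramble liver 2 or 3 or S1pr2 shRNA liver 2. H2-Aa, another class II chain, had 1.47 (SE 0.41, edgeR adjusted p = 0.0743).

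Antiviral genes stimulated by type I interferon numbered 30, of which 29 were tested: 8 rose, 0 fell and 21 did not pass, beside the same 3.02% and 4.64% of all genes, with 27 above 0 and a median of 0.86. Those that rose were Ifit1, Ifit3, Isg15, Oas1a, Oasl2, Rtp4, Ddx58 and Zbp1, with log2 fold changes between 0.58 and 2.63, and each of the 8 lost its call without at least 1 liver. Some rested on very few reads in scramble livers 1 to 3. Zbp1 had 7, 6 and 8 expected counts there, Oas1a 5.87, 4.0 and 8.93, and Ifit1 2.32, 13 and 14. None of these 4 lists had a member that fell in the edgeR fit on all 6 livers, beside 4.64% of all genes, and Irf2 was the exception under the settings named above. Because the lists were chosen with earlier results known, nothing is read from these counts. Without S1pr2 shRNA liver 1 the numbers that rose were 0 further GTPase genes, 3 signalling genes, 1 interferon-gamma-responsive gene and 5 antiviral genes. Without scramble liver 3 they were 0, 2, 0 and 0 in the same order.

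The partners through which the GTPases work were listed as 20 genes. They were genes of ATG8 conjugation, which IRG and GBP loading on vacuoles needs, and of the inflammasome, together with Sqstm1, Ubqln1 and Traf6. Of 19 tested, 0 passed in the edgeR fit, beside 7.66% of all genes in either direction. The log2 fold change was above 0 in 8 of the 19, as in 6283 of all 12230 genes, with a median of -0.02. At an unadjusted p under 0.05 there were 2, Atg16l1 (-0.33 on the log2 scale, SE 0.11, edgeR adjusted p = 0.118) and Atg5 (-0.42, SE 0.17, edgeR adjusted p = 0.176), both parts of the ATG8 conjugation machinery. The share of all genes at that unadjusted threshold was not computed. DESeq2 called 0 as well, and limma on FPKM called 1, Gabarapl1, itself an ATG8 (log2 fold change 0.30 in the edgeR fit, adjusted p = 0.224). Traf6, a ubiquitin ligase recruited to such vacuoles, had -0.24 (SE 0.11, edgeR adjusted p = 0.224).

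**Figure D5:**
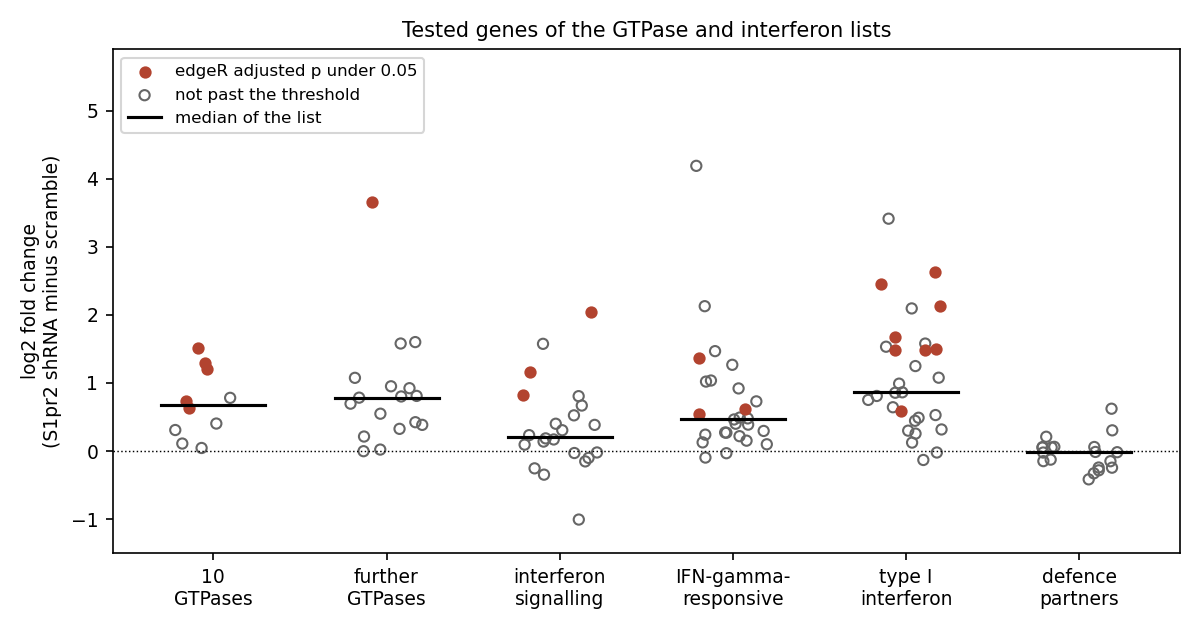
Log2 fold change (S1pr2 shRNA minus scramble) of every tested gene in 6 lists, filled red where the edgeR adjusted p was under 0.05, with the list's median as a bar. The medians are 0.68 for the 10 GTPase genes, 0.78 for the further GTPase genes, 0.21, 0.47 and 0.86 for the signalling, interferon-gamma-responsive and type I lists and -0.02 for the partner genes.

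Markers of other liver and blood cells were summed beside these results. Of 14 macrophage and Kupffer cell markers, 0 passed the edgeR test, beside 7.66% of all genes in either direction. At an unadjusted p under 0.05 there was 1, and the share of all genes at that threshold was not computed. The log2 fold change was above 0 in all 14, as in 6283 of all 12230 genes, with a median of 0.50. The 14 markers summed to 502, 244 and 247 CPM in S1pr2 shRNA livers and 160, 170 and 396 CPM in scramble livers. None was at 0, and the Kupffer cell lectin Clec4f had 279 to 984 counts. Of the 14 T and NK cell markers, 1 was deep enough to test, Cd4 (log2 fold change 2.94, SE 0.63, edgeR adjusted p = 0.0402). The 14 summed to 8.20, 13.2 and 8.72 CPM in S1pr2 shRNA livers, against 0.98, 2.55 and 1.39 CPM in scramble livers. Cd4 alone was 3.95, 9.98 and 5.62 CPM of this in S1pr2 shRNA livers and 0.368, 1.74 and 0.424 CPM in scramble livers. The chemokine gene Ccl5 had 44, 13 and 9 counts in S1pr2 shRNA livers, against 0, 1 and 0 in scramble livers. The T cell genes of the CD3 chains were near 0 and did not follow one pattern. Cd3e had 1, 6 and 1 counts in S1pr2 shRNA livers against 0, 1 and 0 in scramble livers. In the same order of groups, Cd3d had 2.11, 2.11 and 1.95 against 1.10, 2.04 and 2.00, and Cd3g 0, 0 and 4 against 0, 1 and 2. Il2rb had 10, 8 and 11 counts against 0, 0 and 2, and Cd8a 10, 11 and 7 against 6, 6 and 2. Ncr1 had 2, 2 and 2 against 0, 0 and 1, and Cd8b1 1.92, 4.1 and 2.25 against 1.27, 0.84 and 0. The rest of the 14 (Nkg7, Gzma, Gzmb, Prf1 and Klrb1c) overlapped or tied between the groups at low counts.

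Of 10 endothelial markers 4 rose (Tie1, Kdr, Cdh5 and Fcgr2b), beside 3.02% of all genes, and 9 were above 0. The other was Lyve1 (log2 fold change -0.83, SE 0.36, edgeR adjusted p = 0.227). The 10 summed to 316, 324 and 298 CPM in S1pr2 shRNA livers, against 228, 250 and 257 CPM in scramble livers. Summed B cell markers were at most 0.612 CPM and dendritic cell markers at 3.69 to 5.16 CPM in S1pr2 shRNA livers and 3.24 to 4.18 CPM in scramble livers. Neutrophil markers summed to 5.33 to 6.79 CPM in S1pr2 shRNA livers and 3.31 to 7.65 CPM in scramble livers. Stellate cell markers summed to 296 to 475 CPM in S1pr2 shRNA livers and 190 to 441 CPM in scramble livers, and cholangiocyte markers to 45.2 to 105 CPM in S1pr2 shRNA and 27.7 to 54.5 CPM in scramble livers. Of 10 hepatocyte markers 0 passed the edgeR test, beside 7.66% of all genes in either direction, and 4 had an unadjusted p under 0.05. The log2 fold change was below 0 in 8 of the 10, with a median of -0.25. The part of these cells in the GTPase levels was not tested.

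The genes outside the lists whose log2 CPM was most like the mean of the 10 GTPases over the 6 livers were Rras (Pearson r = 0.996), Ocln (0.993), Ilvbl (0.992), Ang (0.991) and Shank2 (0.991), followed by Traf4, Dpy19l3 and Rgs5 (0.990 each). They were ranked among tested genes of at least 1 CPM. These values rest on 6 livers that share the split into 2 groups.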

How the data were processed

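Total RNA of 6 livers, 3 per group, was sequenced on a DNB platform, per the labels. The mouse build mm9 and the tools RSEM 1.2.12, Bowtie2, HISAT2 and DESeq2 are named in the submitters' processing notes, without their order. Read filters and strand handling are not given, so reads of opposite strands cannot be separated. The authors deposited for each gene an expected count, which splits reads shared between genes (24.5 to 25.2% of listed genes had a value that was not whole), and an FPKM, scaled to transcript length and library size. A gene not listed in a library was taken as 0 there.

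Expected counts were rounded, filtered with filterByExpr of edgeR 4.0.16 (minimum count 10), scaled by TMM and tested with the two-sided quasi-likelihood F test with robust dispersions in R 4.3.3, with Benjamini-Hochberg adjustment over 12230 genes and 0.05 as the threshold. Standard errors are the log2 fold change divided by the root of F. The common biological coefficient of variation was 20%. The scripts were tested on simulated data. The 10 genes and all lists were chosen with earlier results of these data known. Of each list, every gene that passed and those of smallest p, up to 4 in all, are named, with the interferon receptor genes and Irf1, Irf7, Irf8 and Irf9. One signalling gene is not reported here. Genes most like the 10 were ranked without Gm, Rik and LOC names. Alternatives were DESeq2 1.42.0 (size factors and Wald test), upper-quartile factors, no filter, limma 3.58.1 on voom values or on log2(FPKM + 0.1) and log2(FPKM + 1) for genes of mean FPKM of at least 0.1, counts rounded down, a replicate block, summed paralogs and each liver left out in turn. Promoters are RefSeq's for GRCm38.p6, and shared windows come from GENCODE M21. Intervals of counts were not computed; precision is given by the spread of 3 livers.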

Additional observations from a re-analysis of the deposited data

How the results depend on the processing

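The median of the 10 GTPase log2 fold changes ran from 0.52 to 0.82 over 16 settings, and all 10 lay above 0 whenever all 6 livers were used. On FPKM the median of all genes moved to 0.16 (pseudocount 0.1) and 0.10 (pseudocount 1), against 0.01 with TMM, and that of the 10 to 0.82 and 0.73. Over all genes 937 passed (369 higher, 568 lower), 982 with upper-quartile factors (506 higher, 476 lower), 824 and 794 on FPKM (570 higher, 254 lower, and 551 higher, 243 lower), 1461 by the DESeq2 Wald test and 231 to 643 with a liver left out. The DESeq2 Wald test called 5 signalling (4 higher and, for Irf2, 1 lower), 8 interferon-gamma-responsive and 13 type I genes, against 3, 3 and 8, and limma-voom and log2(FPKM + 1) called 5 type I genes. Both FPKM settings called 1 partner gene. With a liver left out the counts were 0 to 0 further GTPase, 1 to 3 signalling, 0 to 2 interferon-gamma-responsive, 0 to 5 type I and 0 to 0 partner genes. The log2 fold change of S1pr2 was -0.90 (limma adjusted p = 0.0677) and -0.54 (0.0684) on FPKM and -1.29 to -0.95 with a liver left out. Deviations of same-numbered livers from their group means had r = -0.06, 0.22 and -0.12, and those of differently numbered livers -0.30 to 0.30. With 3 livers per group this cannot decide whether the numbers mark pairs, and no label states it. With the replicate block 808 genes and 5 signalling genes passed (again 4 higher and Irf2 lower) and S1pr2 had -1.11 (edgeR adjusted p = 0.0684). Of the 10 GTPases 5 passed under the block too. Ifnar2 turned to 0.032 and 0.031 on FPKM. For these changes the cause was not tested. Of the values of the other named genes, 363 kept their direction and side of the threshold, 76 lost a call, 10 gained one and 2 changed sign. Among the 10 GTPases, low counts limit Gbp2 and Gbp6 most. They also limit Gbp10, Gm12250, Ifit1, Oas1a, Zbp1 and the T cell genes.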
